A study of Mus musculus with 235 samples.

Results

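The genes described here encode the E proteins Tcf4, Tcf3 and Tcf12 and the inhibitors Id1, Id2, Id3 and Id4. They were taken by symbol from the deposited gene count table and are 7 of its 27998 genes. Expression was measured in 8 punched brain regions, labelled PFC, AMY, PVN, CER, dCA1, vCA1, dDG and vDG, of male C57Bl/6 mice aged 3 months. Of the 30 animals, 15 received saline (vehicle) and 15 received 10 mg/kg dexamethasone, a synthetic glucocorticoid, into the peritoneal cavity, and tissue was taken after 4 h. The libraries, 118 from vehicle and 117 from dexamethasone animals, form 16 groups of 13 to 15 animals each, and a punch mixes all cell types of its site.

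E proteins are basic helix-loop-helix transcription factors that bind the E-box as dimers, often with a partner restricted to 1 lineage such as a neurogenic factor. Id proteins carry the dimerization domain without the basic region, so they take E proteins out of DNA-binding dimers. Id genes are classic targets of BMP signalling through Smad1, Smad5 and Smad9, and in brain they are known from astrocytes, vessels and stem cells, while Tcf4 is known from neurons and from Pitt-Hopkins syndrome.

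Libraries held 268538 to 1451422 counted molecules, with a median of 742957. Levels are given as CPM, counts scaled to a common library total of 1000000 over all libraries. The median count per library was 739 for Tcf4, 233 for Id2, 91 for Tcf12, 84 for Id4, 65 for Id3, 31 for Id1 and 10 for Tcf3, so Tcf3 was measured least precisely. Gabra6 and Pcp2, genes of cerebellar granule and Purkinje cells, had a median of 0 CPM in CER vehicle libraries. Gabra6 exceeded 10 CPM in 10 libraries, 7 of them from vDG (4 vehicle and 3 dexamethasone); without these 10 libraries the same number of member tests, 9, passed, and Tcf4 in vehicle vDG was 1343 ± 158.2 CPM (SD, n = 11) in place of 1282. Prox1, a gene of dentate granule neurons, had a vehicle median of 532.6 CPM in dCA1 and 424.8 CPM in dDG, against 105.8 CPM in vCA1. In all, 1.89% of genes differed between vehicle dCA1 and dDG.

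Sequences around RefSeq start sites were searched for the E-box and for binding motifs of the glucocorticoid receptor and BMP Smads, because the study gave a glucocorticoid and Id genes are Smad targets. RefSeq windows (GRCm38.p6) of 250 bases before to 50 after a start were at hand for Id2, Id3, Id4, Tcf3 and 3 starts of Tcf12. The letters searched on both strands were CANNTG for the E-box, TGTTCT for the receptor's monomer site, and AGAACA, NNN and TGTTCT in a row for its palindrome, which holds the monomer site. Also searched were GGCGCC for the GC element of BMP Smads and CTCC, N and GGAGA in a row for an inverted repeat described at genes that glucocorticoids lower. Of 32851 windows, 72.3% held the E-box, 0.00913% the palindrome, 19.0% the monomer site, 11.9% the GC element and 0.737% the inverted repeat. The E-box stood in 5 of the 7 windows, those of Tcf3, Id2 and the 3 Tcf12 starts, and not in those of Id3 and Id4. The Id3 window held none of the 5, but it lies inside the gene (136143572 to 136143871, after the Id3 start at 136143497), so no sequence before the start of Id3 was searched. The Id2 window lies before a RefSeq start but inside the GENCODE M21 model of Id2 (25093799 to 25097140). The stretches below, read 5′ to 3′ on the gene's strand with the match in capitals, show the monomer site before Tcf3, at chr10:80433806-80433835 on the minus strand, and the GC element before Id2, at chr12:25096306-25096335 on the minus strand, and before Id4, at chr13:48260956-48260985 on the plus strand.
Tcf3: aatctttgtgggTGTTCTggcagtgactgt
Id2: tcaggccccctgGGCGCCcagcgcacactg
Id4: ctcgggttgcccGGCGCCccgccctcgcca

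Id3 was lower after dexamethasone in all 8 regions, by 2.00- to 2.44-fold, and in the main edgeR fits it was the only member to pass in more than 1 region. With same-numbered libraries of the arms as a block, Id2 passed in CER and dDG as well. Id3 lies on chromosome 4 at 136143497 to 136145755 (GRCm38, plus strand). In PFC its level ran from 140.7 through a median of 173.0 to 263.2 CPM in vehicle animals and from 31.3 through 73.1 to 102.1 CPM after dexamethasone. In PVN the values were 63.0, 85.9 and 128.2 CPM in vehicle and 28.6, 46.0 and 61.2 CPM after dexamethasone. In neither region did the arms overlap. How many of all genes had arms without overlap was not counted, here or where overlap is described below.

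In the other 6 regions the highest dexamethasone libraries reached into the vehicle range. The vehicle values, as lowest, median and highest, were 66.2, 128.9 and 219.2 CPM in AMY, where dexamethasone gave 36.9, 64.6 and 99.6 CPM. In CER they were 55.0, 86.5 and 165.8 CPM against 17.8, 38.1 and 65.4 CPM. In dCA1 they were 111.1, 164.2 and 480.1 CPM against 61.3, 80.5 and 139.6 CPM. In AMY 7 dexamethasone libraries lay inside the vehicle range, and in CER and dCA1 1 each, while dDG, vCA1 and vDG had 3 each. The dCA1 library at 480.1 CPM, vehicle replicate 4, stood apart; without it the log2 fold change there was -1.10 in place of -1.23. In dDG the vehicle values were 113.7, 190.3 and 302.8 CPM and the dexamethasone values 34.6, 72.8 and 201.9 CPM. In vCA1 they were 79.1, 137.3 and 275.2 CPM against 27.8, 62.7 and 125.0 CPM. In vDG they were 94.8, 154.3 and 265.8 CPM against 41.8, 66.2 and 113.0 CPM.

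**Figure D1:**
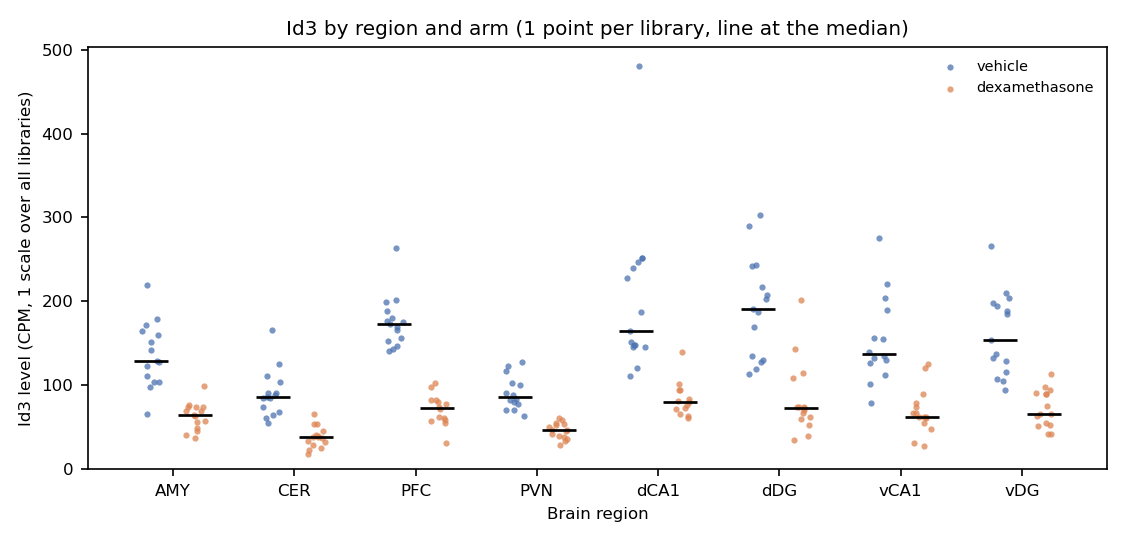
Id3 level in CPM (y axis) for each library, by brain region (x axis) and arm, with a line at each group's median. The vehicle and dexamethasone points do not overlap in PFC and PVN, and the dexamethasone median is the lower one in every region.

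The log2 fold change of Id3 was -1.09 (SE 0.14) in AMY, -1.22 (SE 0.15) in CER, -1.29 (SE 0.11) in PFC and -0.999 (SE 0.11) in PVN. The regions dCA1 and vCA1 gave -1.23 (SE 0.16) and -1.17 (SE 0.17), and dDG and vDG gave -1.20 (SE 0.19) and -1.15 (SE 0.15). Adjusted p-values of edgeR's quasi-likelihood test ran from 5.6e-13 in PFC to 2.98e-05 in dDG. The share of all tested genes that were lower was 2.08% in AMY, 2.28% in CER, 2.28% in PFC and 2.06% in PVN, while it was 2.11% and 1.37% in dCA1 and dDG, and 2.04% and 1.29% in vCA1 and vDG. Of the 7924 genes tested in every region, 31 (0.391%) were lower in all 8, Id3 among them. Within punching dates Id3 was lower in 32 of 32 combinations of region and date with at least 2 libraries an arm, by -2.01 to -0.65 on the log2 scale, and within plates in 32 of 32, by -1.84 to -0.43.

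Some endothelial marker genes were called lower beside Id3 and others were not. Of 10 markers, 6 were tested, and Flt1, Kdr and Slco1a4 were lower in all 8 regions while Pecam1, Ly6c1 and Ly6a passed in none. Ly6c1 was positive in all 8 (0.02 to 0.33 on the log2 scale), Ly6a was negative in all 8 (-0.35 to -0.02) and Pecam1 ran from -0.41 to 0.09. Without the filter on low counts Cldn5 was also lower in all 8 and Tek in 5. Tie1 (-0.88 to -0.37) and Cdh5 (-0.71 to -0.19) were then negative in all 8 but passed in none. Kdr, the main VEGF receptor, fell by 1.26 to 2.13 on the log2 scale. The 10 markers summed to 276.1 to 1086 CPM over vehicle libraries and to 212.3 to 576.2 CPM over dexamethasone libraries. With the mean level of the 10 markers as a covariate, Id3 no longer passed in AMY (-0.58, adjusted p = 0.200), PFC (-0.90, adjusted p = 0.0588), dDG (-0.46, adjusted p = 0.827) and vCA1 (-0.38, adjusted p = 0.502). With the level of Pecam1, Ly6c1 and Ly6a alone it passed in all 8. These markers were chosen because they passed in no region, so that fit could not decide the markers' part. In a punch, fewer cells of a type and less RNA per cell cannot be told apart, and the markers' part in the fall of Id3 was not tested.

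Id1, Id2 and Id4 passed the edgeR test in 0 of 8 regions each and also in 0 with DESeq2; before adjustment p was under 0.05 in 3 regions for Id1, 3 for Id2 and 0 for Id4. Id1 (chromosome 2, 152736251 to 152737410, plus strand) had log2 fold changes from -0.41 in dDG to -0.01 in PFC, negative in all 8 regions. In CER, Id1 ran from 28.4 through 43.9 to 63.1 CPM in vehicle and from 17.3 through 34.5 to 54.7 CPM after dexamethasone, and the change of -0.34 (SE 0.13) had an adjusted p of 0.141. Id2 (chromosome 12, 25093801 to 25096092, minus strand) ranged from -0.32 in dDG to 0.18 in PVN. In dDG its values were 254.5, 318.1 and 449.9 CPM in vehicle and 168.7, 240.3 and 361.2 CPM after dexamethasone, with 9 of 15 dexamethasone libraries below every vehicle library and an adjusted p of 0.0792. That change passed with a replicate block (-0.33, adjusted p = 0.00516) and with the dentate level as a covariate (-0.32, adjusted p = 0.0308). In CER Id2 passed with the block (-0.25, adjusted p = 0.0154), the endothelial level (-0.47, adjusted p = 0.0123) and the mural level (-0.35, adjusted p = 0.0120), and in dCA1 with the dentate level (-0.36, adjusted p = 0.0357). Id4 (chromosome 13, 48261427 to 48264036, plus strand) ranged from -0.06 in dCA1 to 0.20 in vDG. Its gene model in the count table ends 1990 bases before the GENCODE M21 end, so 3′ reads beyond that end fall outside the model.

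The ratio of Id3 to each other Id gene in the same library fell too. The median log2 ratio of Id3 to Id1 was lower after dexamethasone by 0.76 in CER to 1.23 in PFC. In PFC all 14 dexamethasone libraries, and in vCA1 all 15, had a ratio below every vehicle library. The median log2 ratio of Id3 to Id2 was lower by 1.00 to 1.38 and that of Id3 to Id4 by 1.06 to 1.52. These ratios were not tested. The longest run of bases that any transcripts of 2 Id genes share is 19, for Id2 and Id3, against reads of 75 bases.

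Tcf4 (chromosome 18, 69343356 to 69689079, plus strand) passed in 0 of 8 regions, with log2 fold changes from -0.19 in AMY to 0.01 in PVN and 2 standard errors reaching from -0.33 to 0.19. In AMY it ran from 420.7 through 546.0 to 614.9 CPM in vehicle and from 390.9 through 468.4 to 564.0 CPM after dexamethasone, and the arms overlapped. That difference of -0.19 (SE 0.06) had an adjusted p of 0.0740 with edgeR, 0.0272 with DESeq2 and 0.0430 with a replicate block. Before adjustment p was under 0.05 in 1 region for Tcf4. Tcf12 (chromosome 9, 71842688 to 72111871, minus strand), a widely expressed E protein, passed in 0 of 8 regions with edgeR and with DESeq2 (2 before adjustment) and ranged from -0.22 in dDG to 0.03 in PVN.

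Tcf3 (chromosome 10, 80409514 to 80433647, minus strand), which encodes E12 and E47, was lower in PFC and passed in none of the 6 other regions tested. Over the 7 regions its log2 fold change was negative in 6, with -0.41 in PVN (edgeR unadjusted p = 0.0287) and 0.07 in CER. The test of a difference among regions gave Tcf3 an unadjusted p of 0.276. In PFC its values were 8.90, 18.2 and 26.4 CPM in vehicle and 5.25, 9.96 and 19.1 CPM after dexamethasone, and 6 of 14 dexamethasone libraries lay below every vehicle library. The log2 fold change was -0.66 (SE 0.19, adjusted p = 0.0208), and it passed with any 1 library left out (largest adjusted p 0.0462). Within the 4 punching dates and 4 plates that had enough libraries the difference in PFC was negative each time, from -1.04 to -0.20 on the log2 scale. It was not called with the endothelial level as a covariate (-0.44, adjusted p = 0.747). In dDG Tcf3 was too low to be tested.

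**Figure D2:**
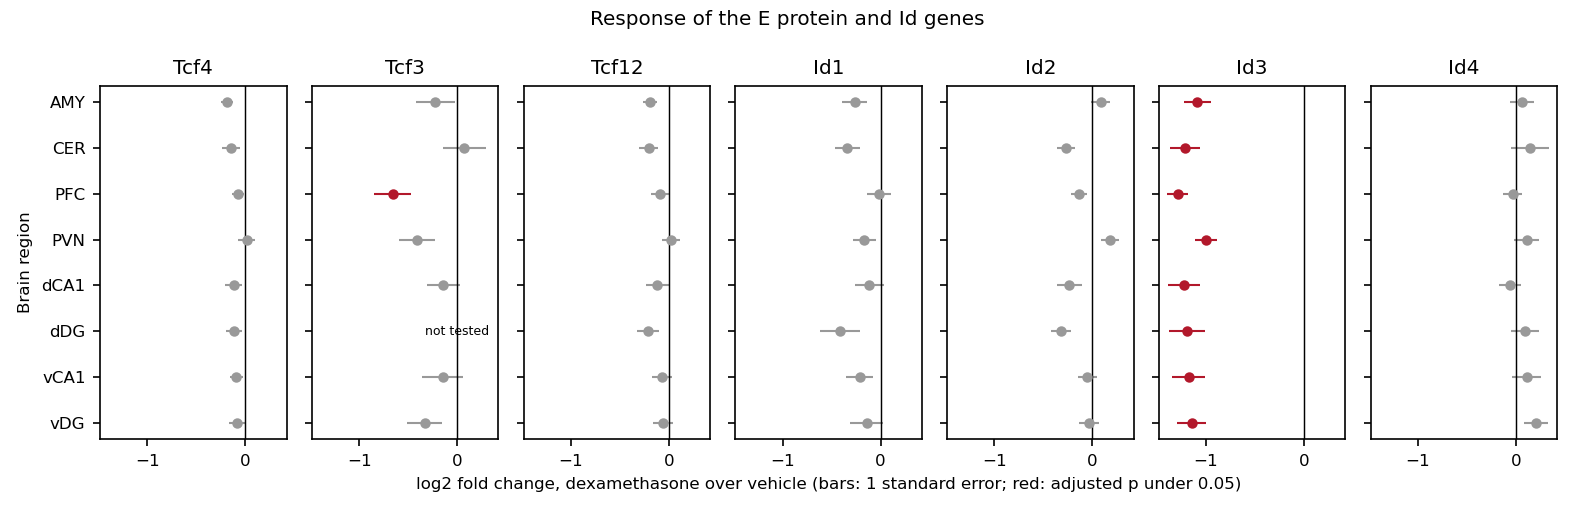
Log2 fold change of dexamethasone over vehicle (x axis, bars of 1 standard error) for each member in each brain region (y axis), red where the adjusted p was under 0.05. Id3 lies between -1.29 and -0.999 in all 8 regions, and Tcf3 in PFC is the other red point.

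In all, 9 of 55 tests of a member in a region passed, each lower after dexamethasone, and 8 of them were Id3; over all genes 5.17% of such tests passed in either direction. Without Id3 1 of 47 passed, a share near the 1.29% to 2.28% of all genes that were lower in a region. Counts were also summed over the 8 regions for the 13 vehicle and 13 dexamethasone animals with a library from each. Id3 ran from 122.1 through 145.9 to 188.9 CPM per vehicle animal and from 49.9 through 66.5 to 85.9 CPM per dexamethasone animal without overlap; its log2 fold change over these sums was -1.12 with an SE of 0.08 (adjusted p = 8.946e-14). Tcf3 was lower by -0.21 (SE 0.07, adjusted p = 0.0423), and the call was lost in 14 of the 26 fits that left out 1 animal, with a replicate block (adjusted p = 0.0980), with no filter (adjusted p = 0.0647) and with limma on scaled CPM sums (adjusted p = 0.0608). Id4 was higher, at 88.7, 108.4 and 125.8 CPM in vehicle and 106.5, 121.2 and 132.9 CPM after dexamethasone, a change of 0.17 (SE 0.05, adjusted p = 0.0137). Id4 lost that call with a replicate block (0.13, adjusted p = 0.0846) and with limma (0.14, adjusted p = 0.0549). Among all genes 8.82% were lower and 9.74% higher in these sums. Id1 (-0.16, adjusted p = 0.0548), Id2 (-0.10), Tcf12 (-0.07) and Tcf4 (-0.06) did not pass with edgeR. With limma Id1 (-0.20, adjusted p = 0.0146) and Tcf4 (-0.10, adjusted p = 0.0471) passed, and with edgeR Id1 passed in 8 of the 26 fits that left out 1 animal.

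Whether the response differed among the 8 regions was tested in a single fit over all libraries. None of the 7 members passed, against 1.17% of all genes. The 1 member with an unadjusted p under 0.05 was Id2 (p = 0.00881, edgeR adjusted p = 0.294), and Id3 had an F of 0.284 (p = 0.960).

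In vehicle animals 6 of the 7 members differed among regions, against 73.3% of all genes; Tcf3 did not (adjusted p = 0.686). Tcf4 differed most, with 23 of its 28 pairs of regions past the threshold, against 31.4% of tests of all genes over the 28 pairs. It was 1517 ± 232.2 CPM (SD, n = 15) in dCA1, 1481 ± 226.1 in dDG, followed by 1324 ± 134.6 in vCA1 (n = 14) and 1282 ± 201.1 in vDG. It was 1029 ± 87.1 CPM in PFC, 559.8 ± 130.3 in CER, 545.4 ± 52.3 in AMY and 392.5 ± 43.0 in PVN. Down this order, no 2 adjacent hippocampal regions differed beyond their spread, but dCA1 and dDG each differed from vDG (adjusted p = 0.0113 and 0.0498). Without the libraries high in Gabra6 neither did (adjusted p = 0.202 and 0.395), vDG (1343 CPM) stood above vCA1 (1307 CPM), and dCA1 differed from vCA1 (adjusted p = 0.0420). CER and AMY did not differ, while vDG and PFC (adjusted p = 9.62e-04), PFC and CER, and AMY and PVN (adjusted p = 4.79e-06) did. From dCA1 to PVN the level fell 3.83-fold.

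**Figure D3:**
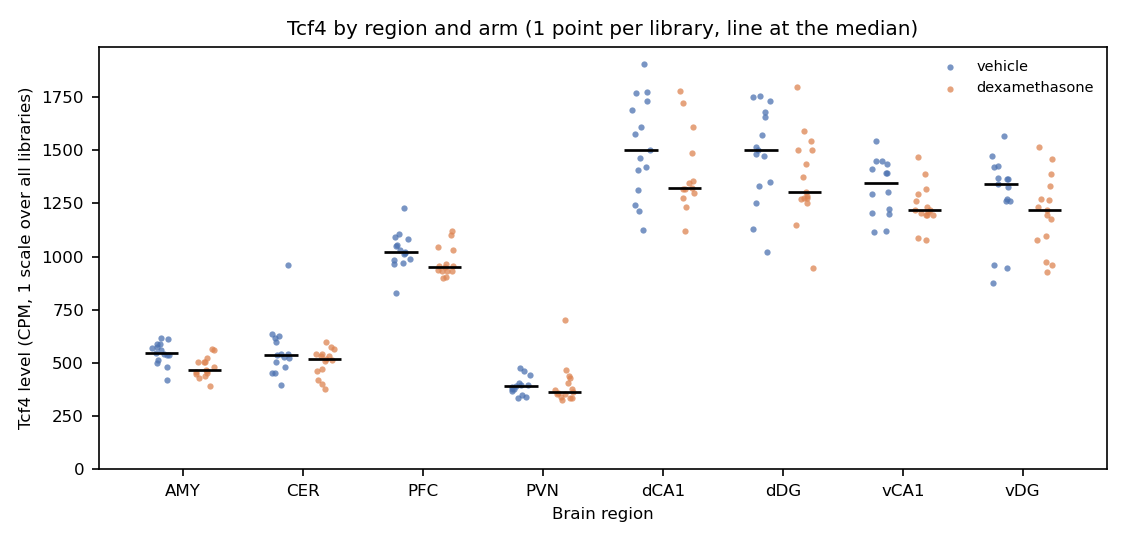
Tcf4 level in CPM (y axis) for each library, by brain region (x axis) and arm, with a line at each group's median. The hippocampal vehicle libraries run from 874.3 to 1907 CPM and those of AMY, CER and PVN from 333.4 to 959.2 CPM, and the arms overlap in each region.

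Id3 was 201.4 ± 91.6 CPM in vehicle dCA1, 191.9 ± 60.5 in dDG, 175.5 ± 30.8 in PFC, 161.3 ± 49.2 in vDG, 154.1 ± 52.2 in vCA1, 136.7 ± 38.8 in AMY, 91.2 ± 20.4 in PVN and 90.3 ± 28.3 in CER. Of these neighbours, AMY and PVN differed (adjusted p = 0.00386). The Id3 mean in dCA1 includes the library at 480.1 CPM, and by median dCA1 (164.2 CPM) lay below dDG (190.3) and PFC (173.0). Id4 was 156.1 ± 37.0 CPM in dCA1, 140.0 ± 42.0 in vCA1, 130.4 ± 21.0 in PFC, 119.9 ± 28.5 in vDG, 116.2 ± 35.1 in AMY, 113.8 ± 31.6 in dDG, 82.0 ± 17.2 in PVN and 54.2 ± 24.6 in CER, and both dDG over PVN and PVN over CER passed. Id1 ran from 68.1 ± 27.2 CPM in dDG to 33.6 ± 6.24 in PVN, with no pair of neighbours past the threshold. Id2 ran from 403.0 ± 65.3 CPM in PFC to 241.9 ± 45.9 in PVN, where AMY over PVN passed (adjusted p = 0.0157). Tcf12 ran from 148.3 ± 25.2 CPM in vDG to 106.7 ± 23.9 in PVN and Tcf3 from 18.7 ± 6.57 CPM in vDG to 14.0 ± 7.31 in CER, with no neighbours past the threshold.

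The genes most like each member were found over the 118 vehicle libraries among 10944 genes; these libraries share regions, depth and RNA quality, and the correlations are descriptions. Tcf4 was most like Neurod2 (r = 0.931), Zbtb18 and Grin2a across regions, and like Kalrn (r = 0.551), Hivep3 and Med13l once each region was centred. Id3 was most like Tfcp2l1 (r = 0.733), Ezr and Ski across regions. With regions centred, Id1 and Id3 were each other's most alike gene (r = 0.625), followed for Id3 by Slc7a11 and Cd63 and for Id1 by Fxyd1 and Cd63. Id2 was most like Htra1 (r = 0.696), Glul and Cxcl14 across regions and Gja1 (r = 0.653), Gna13 and Gjb6 with regions centred. Id4 was most like Fbxl16 (r = 0.845), Gpm6a and Pum2, and with regions centred Pum2 (r = 0.733), Ids and Fbxl16. Tcf12 was most like Zkscan3 (r = 0.686), Luc7l2 and Malat1, and with regions centred Zkscan3 (r = 0.723), Clk1 and Supt20. For Tcf3 no gene exceeded r = 0.431.

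Within single regions and arms, 324 correlations between members were computed and 9 passed after adjustment, all among the Id genes. Id1 and Id3 rose and fell together in 6 of them. In dDG r was 0.808 (rho = 0.761, r = 0.858 without the 2 outermost libraries, permutation adjusted p = 0.0162) in vehicle and 0.868 (rho = 0.946, r = 0.763, adjusted p = 0.0146) after dexamethasone. In vCA1 r was 0.804 (rho = 0.714, r = 0.602, permutation adjusted p = 0.0182) and 0.852 (rho = 0.639, r = 0.768, adjusted p = 0.0162). In vehicle dCA1 r was 0.837 (rho = 0.743, r = 0.594, permutation adjusted p = 0.0162) and in vDG after dexamethasone 0.793 (rho = 0.836, r = 0.727, adjusted p = 0.0162). Id1 and Id3 were positively correlated in all 16 groups, with a median r of 0.545 in vehicle and 0.532 after dexamethasone. The others were Id1 with Id2 (r = 0.836) and Id2 with Id3 (r = 0.762) in vehicle dCA1 and Id3 with Id4 in vCA1 after dexamethasone (r = 0.786). In vehicle dCA1 the highest values were 108.1 CPM for Id1, 605.5 for Id2 and 480.1 for Id3, against medians of 49.5, 324.4 and 164.2. Whether 1 library carried the correlations there was not tested. By rank correlation 4 of the 9 passed. No correlation of Tcf4 with another member passed; with Id3 its r ran from -0.46 to 0.49 in vehicle and from -0.62 to 0.17 after dexamethasone. None of 162 differences between arms passed (3 with an unadjusted p under 0.05, permutation test). A single punching date held at most 4 and a plate at most 5 libraries of a region and arm, so no correlation was computed within one. With values centred on the punching date 14 passed. The permutations took no account of the centring, so those p-values tend to be too small and the 14 cannot be set against the 9.

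**Figure D4:**
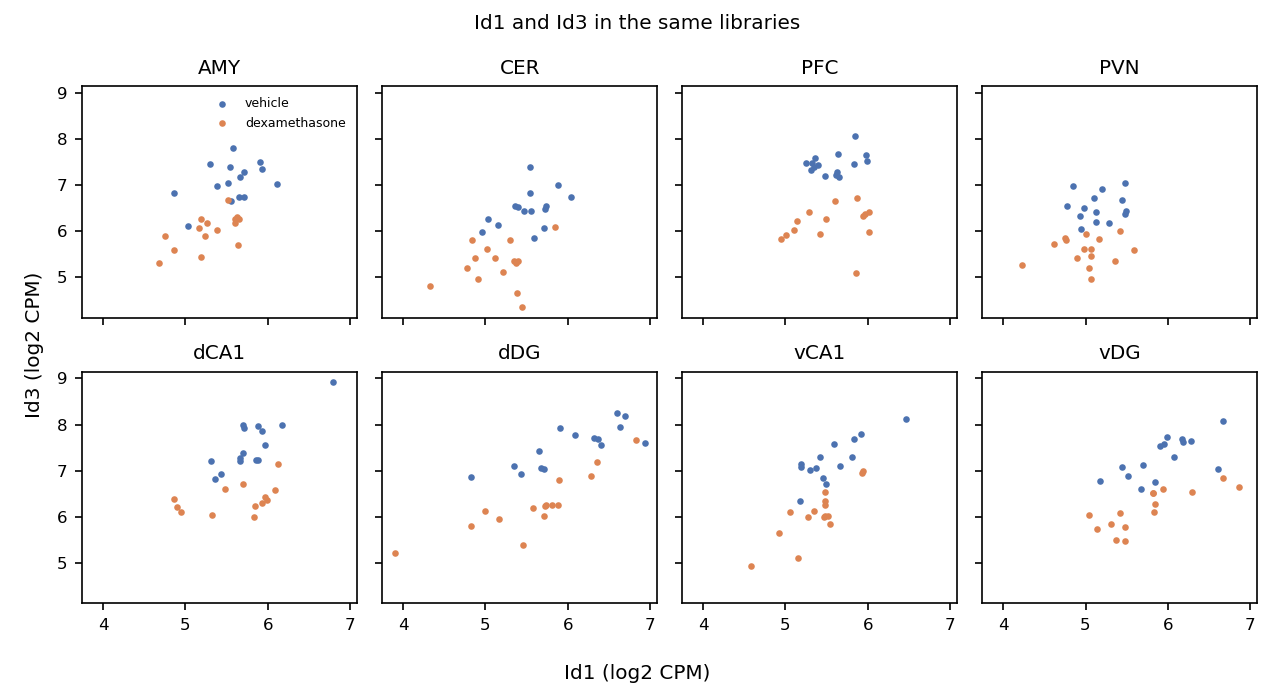
Id3 (y axis, log2 CPM) against Id1 (x axis, log2 CPM) in each library, by brain region and arm. The dexamethasone points lie lower on the Id3 axis at a like Id1 level, and r was above 0.80 in both arms of dDG and vCA1.

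Partners, upstream genes and cofactors of these proteins were described from lists. Among all genes 3.54% were higher in AMY, 3.90% in CER, 3.86% in PFC and 3.57% in PVN, while the shares in dCA1 and dDG were 2.57% and 2.33% and those in vCA1 and vDG 3.41% and 2.64%; 0.883% were higher in all 8. Of the BMP Smads, Smad1, which carries BMP signals to the nucleus, was higher in all 8 regions (0.37 in PVN to 0.96 in PFC), and Smad5, Smad4 and Smad9 passed in none. In PFC Smad1 ran from 21.7 through 28.7 to 41.1 CPM in vehicle and from 45.2 through 58.4 to 70.4 CPM after dexamethasone, without overlap. Of 54 tests of BMP inhibitors 0 passed with edgeR (8 before adjustment, 1 with DESeq2), and among 5 tested receptor genes Acvr1 was lower in vCA1, Bmpr1b lower in dCA1 and Acvr2a higher in PFC. Acvr2a lost its call with a replicate block (0.31, adjusted p = 0.0720) and with the mural level (adjusted p = 0.0821), and all 3 receptor calls were lost with the endothelial level (adjusted p = 0.380, 0.748 and 0.939). With the endothelial level Acvr1 was instead called lower in dCA1 (-0.75, adjusted p = 0.0196). Bmp3 was lower in PFC and passed alone among the 4 ligand genes tested; Bmp1 on that list encodes a protease.

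The Hes, Hey and Bhlhe40/41 repressors are helix-loop-helix proteins, many of them Notch targets. Of 49 tests 20 passed, all lower, and the list's median log2 fold change ran from -0.57 to -0.17 over regions, beside -0.02 to 0.00 for all genes. Hes5 was lower in all 8 regions (-1.44 in CER to -0.86 in AMY), Hey1 in 5, Bhlhe41 in 3 and Bhlhe40 in 2. In PFC Hes5 ran from 49.5 through 70.9 to 121.2 CPM in vehicle and from 18.5 through 34.8 to 48.3 CPM after dexamethasone, without overlap. Of the partners, 5 of 43 tests passed: Neurod6 was lower in PFC and vCA1, Neurod2 and Bhlhe22 higher in PFC, and Olig2 higher in CER. In vCA1 dentate genes moved with these values: Dsp (1.95 on the log2 scale, adjusted p = 7.88e-04) and Npnt (1.22, adjusted p = 0.00837), 2 of the 3 tested there of a list of 6, were higher after dexamethasone. In dCA1, where all 6 were tested, 1 was lower and the list's median log2 fold change was -0.28. With the dentate level as a covariate Neurod6 (-0.64, adjusted p = 0.0217) and Id3 (-1.23, adjusted p = 3.63e-05) still passed in vCA1. Of the cofactors, 14 of 70 passed. Cbfa2t3, a corepressor of the ETO family, was lower in 4 regions (largest fall -1.25, in dDG, the 1 of the 4 calls that passed with the endothelial level as a covariate), and Ldb1, an adaptor that joins LMO proteins to E protein complexes, was higher in 4 (0.43 in dCA1 to 0.82 in CER). Lmo2 and Lmo4 were each lower in 2. Lmo4 lost its call in CER with the endothelial (adjusted p = 0.213) and mural levels (adjusted p = 0.212), and in vCA1 with date and plate as factors (adjusted p = 0.0547), the dentate level (adjusted p = 0.0525), the endothelial level (adjusted p = 0.0887) and a replicate block (adjusted p = 0.0619). With the block it was called lower in AMY (-0.49, adjusted p = 9.20e-05) and PFC (-0.24, adjusted p = 0.00495), as it was with date and plate as factors (adjusted p = 7.75e-05 and 0.0168) and upper-quartile scaling (adjusted p = 0.0460 and 0.0479), and in AMY also with DESeq2 (adjusted p = 0.0437), the astrocyte level (adjusted p = 0.0117) and the level of Pecam1, Ly6c1 and Ly6a (adjusted p = 0.0421). Ldb1 lost its call in dCA1 with the dentate level as a covariate (adjusted p = 0.142) and gained one in PFC with the block (0.37, adjusted p = 0.00468), date and plate (adjusted p = 0.0203) and the mural level (adjusted p = 0.0404). Without libraries of RNA integrity number under 5, none of the 3 calls of Bhlhe41 passed (adjusted p = 0.0728 in dCA1, 0.0924 in dDG and 0.172 in vDG), nor did Hey1 in vDG (adjusted p = 0.0591). With no filter Bhlhe41 was lost in dCA1 (adjusted p = 0.0633) and dDG (adjusted p = 0.0512), and without dCA1 vehicle replicate 4 in dCA1 (adjusted p = 0.0544). It was lost in both regions with the mural level (adjusted p = 0.0704 and 0.0516) and the level of Pecam1, Ly6c1 and Ly6a (adjusted p = 0.0602 and 0.0949). In dDG it was also lost with the astrocyte level (adjusted p = 0.111). Bhlhe41 was called lower in PFC under 6 alternatives (-0.40 to -0.33, adjusted p = 0.0242 to 0.0491) and in PVN with the block (-0.26, adjusted p = 0.0278). Without the 10 libraries high in Gabra6, the calls of Bmp3 in PFC (adjusted p = 0.0541), Hey1 in vDG (adjusted p = 0.0585), Bhlhe41 in vDG (adjusted p = 0.148) and Lmo2 in vDG (adjusted p = 0.0525) were lost. With the endothelial level as a covariate 32 of the 51 calls among the listed genes other than the members were lost, while the share of all tests called went from 5.17% to 3.41%. Hes5 passed then in AMY, CER and dCA1, Smad1 in CER, dCA1, vCA1 and vDG, Ldb1 in CER, dCA1 and vDG, and Hey1 in AMY and CER. Both calls of Bhlhe40, both of Neurod6 and that of Olig2 passed as well, and those of Bhlhe41, Lmo2, Lmo4, Neurod2, Bhlhe22 and Bmp3 did not. Gained with the endothelial level were Olig2 in AMY, higher (0.84, adjusted p = 0.0267), and Acvr1 in dCA1, lower (-0.75, adjusted p = 0.0196).

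**Figure D5:**
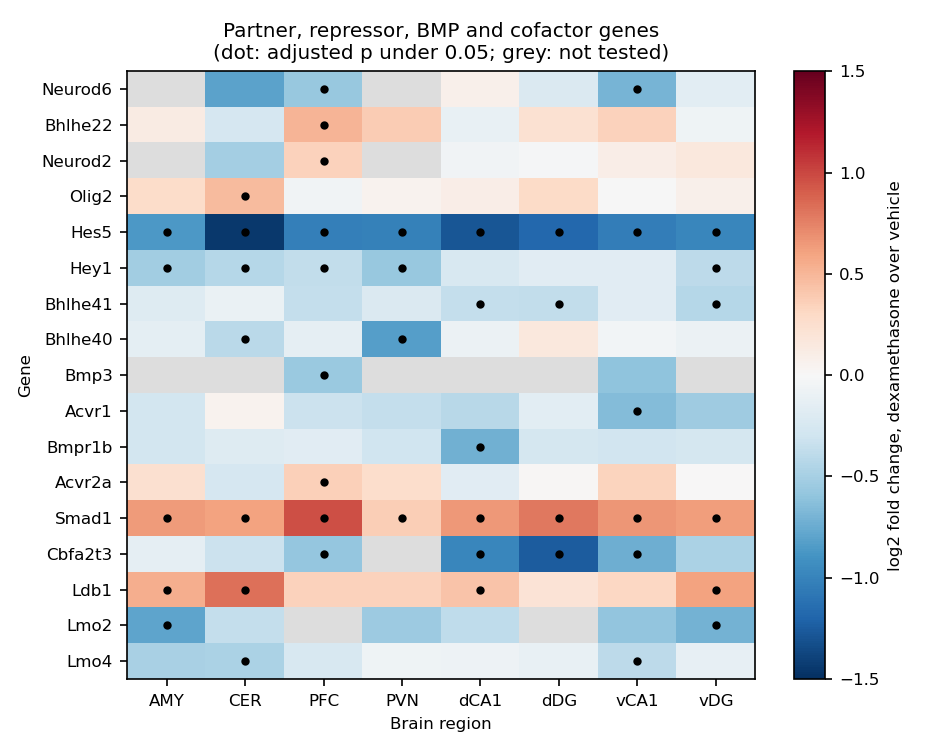
Log2 fold change of dexamethasone over vehicle (colour) for the named partner, repressor, BMP and cofactor genes (rows) in the 8 regions (columns), with a dot where the adjusted p was under 0.05. Hes5 is lower and Smad1 higher in all 8 columns.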

How the data were processed

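RNA from punches of 8 brain regions was sequenced with a 3′ mRNA kit carrying molecular identifiers, per the labels. The submitters' processing notes name cutadapt, UMI-tools 0.5.4, STAR 2.6.0a, featureCounts 1.6.4, DESeq2 1.30.1 and build mm10. The authors deposited raw counts per gene, and variance-stabilised values on a log2 scale per region for 228 libraries, which were used for 1 alternative only. Identifiers were named from GENCODE M21 (27645 of 27998).

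Each region was fitted with edgeR 4.0.16 (filterByExpr, TMM, quasi-likelihood test; R 4.3.3) on the counts, with Benjamini-Hochberg adjustment over all genes tested and a threshold of 0.05. Vehicle levels were compared with the animal as a block. Correlations used log2 CPM (prior count 2), 100000 permutations and adjustment over the family, in Python 3.11.15 with scipy 1.17.1. Ratios and within-batch values used log2(CPM + 1). DESeq2 1.42.0 and limma 3.58.1 were alternatives. Scripts were tested on simulated data.

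The members, the pathway and marker lists and the tests were chosen with earlier results of these data known. Text names the members, up to 4 genes a list by the number of regions passed (ties by median p), pathway and marker genes past the test of a difference among regions, the 3 genes most alike to each member above 5 CPM, and marker genes. Counts are of molecules, and standard errors include the spread between animals as well as counting error.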

Additional observations from a re-analysis of the deposited data

Results flagged for a closer look

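The responses of 2 genes from the pathway lists differed among the 8 regions by the test of that difference (edgeR's quasi-likelihood F test over all libraries). Bhlhe40, a helix-loop-helix repressor that also acts in the circadian clock, had F = 6.31 (adjusted p = 3.05e-04): it was lower in PVN (-0.83 on the log2 scale) and CER (-0.41) and passed in none of the other 6 regions, where it lay between -0.14 and 0.16. The call in CER was lost with no filter (adjusted p = 0.0548), with date and plate as factors (adjusted p = 0.0624) and with the mural level as a covariate (adjusted p = 0.0540). Cbfa2t3 had F = 6.07 (adjusted p = 4.85e-04): it was lower in dDG (-1.25), dCA1 (-0.98), vCA1 (-0.73) and PFC (-0.58), and lay between -0.47 and -0.13 in the 3 other regions tested. Both passed under each of the 4 alternatives run for this test. Of the marker genes, Prox1 (F = 5.11, adjusted p = 0.00365) and Avp (F = 4.17, adjusted p = 0.0266) also passed. Prox1 was lower in CER (-1.04), AMY (-0.47) and PVN (-0.35), and in vCA1 it was 0.80 (adjusted p = 0.0522). Avp, which encodes vasopressin, was tested by region in PVN alone (1.39, adjusted p = 0.212), and with the animal as a block its difference among regions was not called (adjusted p = 0.578).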

How the results depend on the processing

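Id3 stayed below the threshold of 0.05 and lower in each of the 101 alternative fits other than those with the endothelial level (log2 fold change -1.34 to -0.85, largest adjusted p 5.77e-04). With the endothelial level as a covariate it was -0.58 in AMY, -0.90 in PFC, -0.46 in dDG and -0.38 in vCA1 and no longer passed there, and Id2 in vDG changed sign and passed (0.37, adjusted p = 0.0348); 5 of the 10 markers in that covariate themselves passed the test of the response, 2 of them (Cldn5 and Tek) in the fit without the filter, and the cause was not tested. Sign changes of values that passed in neither fit were not counted. Among the 101 fits, those without libraries high in Gabra6 removed none in AMY, PVN, dCA1 and dDG. Those without an RNA integrity number under 5 removed none in PFC, so these fits repeat the main one. The fits with the level of Pecam1, Ly6c1 and Ly6a used markers chosen because they passed in no region.

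Same-numbered libraries of the arms come from different animals; all 115 such pairs shared a plate and 109 a punching date, so the block also carries those batches. With date and plate as factors 9 member tests passed, as without them. Same-numbered libraries did not all correlate above 0.1 in any region (median r 0.05 in vCA1 to 0.21 in PFC), and 1 of 15 (vDG) to 8 of 15 (CER) vehicle libraries correlated best with their own number. With a replicate block 12 member tests passed over the 8 regions in place of 9, and 1 member, Id3, in the animal sums in place of 3. Leaving out 1 animal gave 2 to 4 members in those sums. With limma 3 members passed there, but Id1 and Tcf4 stood in the place of Tcf3 and Id4.

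Correlations past the threshold numbered 4 with the authors' variance-stabilised values and 14 with values centred on the punching date, against 9. The cause was not tested, and the permutation p-values of the centred values took no account of the centring. Differences of correlation between arms numbered 0 under each of the 3 alternatives. The covariates and left-out libraries beyond the endothelial and dentate levels, RIN, dates and plates were chosen after seeing the data. Depth limits Tcf3, at a median of 10 counts, most.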

Other observations

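Of the 8 microglial markers, Cx3cr1 and P2ry12 were lower in each of the 8 regions, beside Id3, and they made up all 16 calls in 50 tests of this list. Over all genes 5.17% of tests in a region passed in either direction. The median log2 fold change of the list ran from -0.24 to 0.00 over regions, beside -0.02 to 0.00 for all genes. The 8 markers summed to 231.4 to 986.1 CPM over vehicle and to 137.5 to 510.1 CPM over dexamethasone libraries. Neuron markers passed in 0 of 64 tests with edgeR and with DESeq2 (2 before adjustment) and astrocyte markers in 2 of 64, 1 in each direction. Choroid plexus markers passed in 1 of 19 tests with edgeR, lower in vCA1, and in 0 with DESeq2. Their median log2 fold change ran from -1.39 in vCA1 to 0.92 in AMY. In dDG they summed to 205.2 to 16460 CPM (median 2070) in vehicle and 169.8 to 19195 CPM (median 455.0) after dexamethasone. Without the filter on low counts Cldn5, a tight junction gene of brain endothelium, was lower in all 8 regions (-1.95 to -1.09 on the log2 scale) and Tek in 5.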
